A study of Homo sapiens with 12 samples.

Results

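Transcript levels were measured by RNA sequencing in HMEC-1, a human dermal microvascular endothelial cell line, after transfection with a synthetic microRNA, and the 40 genes described here are those named as heterogeneous nuclear ribonucleoproteins (symbols beginning with HNRNP), SR proteins (SRSF followed by a number) or polypyrimidine tract-binding proteins (PTBP1 to PTBP3). They were chosen by symbol alone from 36433 gene symbols, pseudogenes left out, and comprised 25 hnRNP, 12 SR and 3 PTB genes. The 4 groups were cells given a miR126, a miR143 or a miR150 mimic (written miR-126, miR-143 and miR-150 below) or a non-targeting scrambled RNA, each with Lipofectamine RNAiMAX at 50 nM and collected after 48 h. All groups thus share the line, the transfection reagent and a synthetic RNA, and untransfected cells are not analysed here. Each group had 3 libraries, numbered 2, 3 and 4, and values are listed in that order. The labels do not say that equal numbers mark separate cultures, so every p-value reflects only how far these libraries differ, which may be technical variation. The study's title concerns the part that these microRNAs play in abnormal growth of retinal vessels, and the cells are of dermal origin.

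The 3 families act on the same substrate. The hnRNP proteins package nascent transcripts and often block the use of nearby splice sites, the SR proteins bind exonic enhancer elements through RNA recognition motifs and recruit the spliceosome through domains rich in arginine and serine, and the PTB proteins bind pyrimidine-rich stretches near exons and mostly repress their inclusion. Many of these genes limit their own protein by splicing their transcripts into forms that are degraded by nonsense-mediated decay or kept in the nucleus with an intron. MicroRNAs pair through their seed, bases 2 to 8, with sites in 3′ untranslated regions (UTRs) of messenger RNAs and lower their level or translation.

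The mature strands below are from RefSeq (GRCh38.p14) and are shown because the seed defines the sites that were looked for; the seed is in capitals. The labels do not state the arm of each mimic, and the 3p strand, the usual guide strand, is shown for miR-126 and miR-143. No mature miR-150 sequence was in the source used, so sites for the miR-150 mimic were not looked for.

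hsa-miR-126-3p: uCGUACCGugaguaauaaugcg
hsa-miR-143-3p: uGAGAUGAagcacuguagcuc

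A full seed match to miR-143-3p (TCATCTC, on the transcript's own strand) occurred in the longest annotated 3′ UTR of 6 of the 35 genes that passed the filter on low levels, or 17.1%, against 14.4% of the 12429 tested genes with an annotated 3′ UTR. The match to miR-126-3p (CGGTACG) occurred in 0 of the 35 and in 0.3% of all genes. The 3′ UTRs of the 35 genes were longer than those of all genes, with a median of 2201 against 1349 bases. The miR-143-3p matches are shown with 10 bases before and 8 after, the match in capitals, because they can be set beside the values of the same genes in miR-143 mimic libraries.

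PTBP3: tcaaagtgtcTCATCTCaactttta
SRSF11: ctgtatttgtTCATCTCaaacctag
SRSF8: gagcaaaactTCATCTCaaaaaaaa
HNRNPA0: tatactgtggTCATCTCttcagtga
HNRNPC: atattttaaaTCATCTCtacattaa
PTBP2: cacccaattcTCATCTCctttatta

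In PTBP3, SRSF11 and SRSF8 the base after the match is an A, the base that lies opposite the microRNA's first position and that is known to favour repression. The PTBP3 match lies at chr9:112222129-112222135 (GRCh38, minus strand), and the transcripts that hold it made up 82.6% of the gene's level. For HNRNPA0 that share was 100%, for SRSF11 40.4%, for SRSF8 39.7%, for HNRNPC 4.5% and for PTBP2 1.4%. The 6 genes differed in what they did: their log2 fold changes in miR-143 mimic cells ran from -1.67 for PTBP3 through -0.41 for SRSF11, -0.37 for HNRNPA0, -0.33 for PTBP2 and -0.14 for HNRNPC to 0.70 for SRSF8, and PTBP3 alone passed the test. A match describes these letters and is not evidence of binding.

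Levels are given in TPM, the share of transcripts after scaling each library to the same total, a unit corrected for transcript length that can be compared between genes, summed over the transcripts of a symbol. The filter kept the 13750 symbols that reached 1 TPM in 3 or more libraries. The number of reads behind a TPM value is unknown, so counting error cannot be given. Of the 40 genes, 35 passed, namely 21 hnRNP, 11 SR and 3 PTB genes. The other 5 were SRSF12, with at most 0.291 TPM in any library, and HNRNPCL1 to HNRNPCL4, near-identical intronless copies related to HNRNPC, of which HNRNPCL1 reached 0.281 TPM and the others at most 0.157 TPM.

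The libraries held 12299 to 13564 symbols at 1 TPM or more. All 11 endothelial markers were detected in every library, PECAM1 at 165.8 to 687.8 TPM and CDH5 at 216.3 to 470.6 TPM, and the list summed to 1154 to 2414 TPM. The 6 epithelial markers summed to 1.33 to 5.2 TPM and the 6 leukocyte markers to 1.84 to 4.16 TPM. The 10 markers of fibroblasts and pericytes summed to 45.7 to 141 TPM: PDGFRA, DCN and LUM reached at most 0.81 TPM, but COL1A2 reached 80.1, TAGLN 61.1, COL1A1 32.0 and ACTA2 28.6 TPM. In a pair of libraries, replicate 4 of the miR-143 mimic and replicate 4 of the miR-150 mimic, long genes were low: across genes, the rank correlation of length with the deviation from the average library was -0.40 and -0.55 there, against -0.01 to 0.29 in the other 10 libraries. Ribosomal protein genes took 24.0% of TPM in replicate 4 of the miR-150 mimic and 13.4% to 17.9% elsewhere. Each result below was also computed without this pair.

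Together the 40 genes made up 1.17% to 1.38% of all TPM in a library. The hnRNP genes summed to 9130 to 10890 TPM, the SR genes to 2227 to 2710 TPM and the PTB genes to 237.2 to 467.5 TPM. The highest single level was that of HNRNPA1, a shuttling protein that represses many exons, at a mean of 1885 TPM over the 12 libraries. HNRNPA2B1, its close relative, followed at 1419 TPM and HNRNPC, which coats nascent transcripts and binds uridine-rich tracts, at 916 TPM. The lowest of the 35 were PTBP2, the neuronal paralogue of PTBP1, at 10.5 TPM, HNRNPA1L2, an intronless gene near-identical to HNRNPA1, at 11.4 TPM, and SRSF8, a retrocopy related to SRSF2, at 25.9 TPM. Reads of HNRNPA1L2 may belong to HNRNPA1, so its level is uncertain.

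Among the SR genes, SRSF3, a small SR protein that also promotes messenger RNA export, was the most abundant, at a mean of 529 TPM. SRSF1, the founding member of the family, stood at 289 TPM, SRSF2 at 258 TPM and SRSF7 at 233 TPM. Of the PTB genes, PTBP1 (313 TPM) exceeded PTBP3 (51.6 TPM) and PTBP2 in every library. Order among close genes was not resolved: in the control libraries, 16 of the 34 pairs of neighbours in the ranking overlapped.

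**Figure D1:**
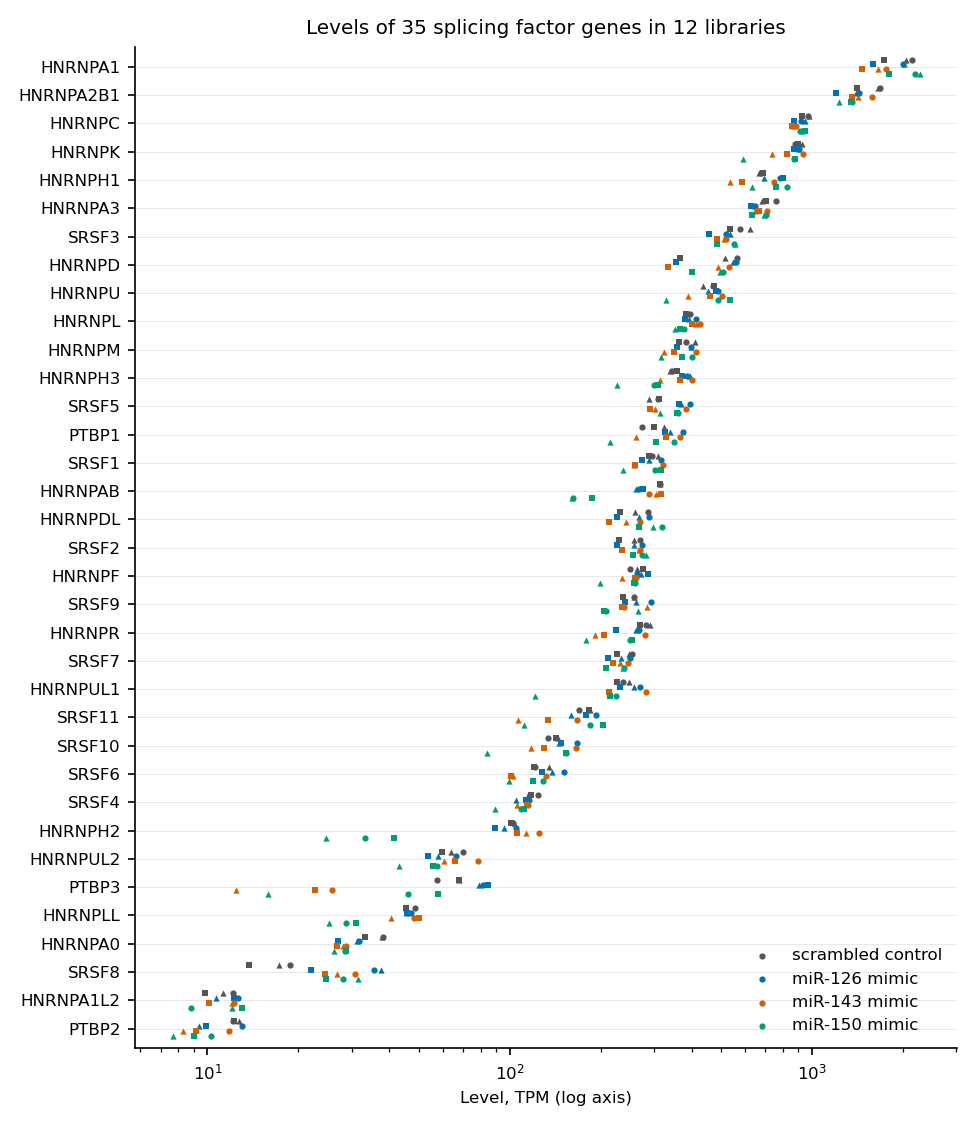
Level of each of the 35 genes past the filter (vertical axis) in TPM (horizontal log axis), 1 point per library, coloured by group, with circles, squares and triangles for replicates 2, 3 and 4. Most genes keep a narrow range over the 12 libraries. PTBP3, HNRNPH2, HNRNPAB, HNRNPLL and SRSF8, which passed in the comparisons below, hold a group that stands away from the controls. Other genes, such as HNRNPA0, also have groups that do not overlap the controls.

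The comparison of each mimic with the scrambled control asked which of these genes respond to the microRNA. The test was limma on log2(TPM + 1) fitted to all 13750 genes and 12 libraries, with adjustment over all genes and a threshold of 0.05, and fold changes are on that scale, which understates changes of low genes. The 3 comparisons share the control libraries.

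SRSF8 was the 1 gene of 35 that passed in miR-126 mimic cells, where 5.11% of all genes tested passed and 3.37% of all genes tested passed as higher than the control. PTBP3 was the 1 gene that passed in miR-143 mimic cells, against 3.32% of all genes tested, and 1.48% for lower genes alone. HNRNPH2, HNRNPAB and HNRNPLL passed in miR-150 mimic cells, all lower, against 3.32% of all genes tested, and 2.23% for lower genes alone. The 3 genes all belong to the hnRNP family, of which 21 were tested. For the 34, 34 and 32 genes that did not pass, log2 fold changes lay between -0.27 and 0.34 for miR-126, between -0.41 and 0.70 for miR-143 and between -0.86 and 0.73 for miR-150.

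For miR-126 the members' median log2 fold change was -0.004 against 0.10 for all genes, for miR-143 -0.083 against -0.043, and for miR-150 -0.130 against -0.108. For miR-150, 28 of 35 genes were below 0. Centring each library on its median moved every fold change by 0.128 and left 18 of 35 below 0 (median -0.002), and quantile normalization left 27 (median -0.059). The same centring moved miR-126 fold changes by 0.137 the other way, and the number of genes below 0 went from 19 to 28 (median -0.141), with 17 after quantile normalization (median 0.013). The 3 libraries of a mimic lay wholly above or below the 3 controls for 12 of 35 genes with miR-126 (34.1% of all genes), for 10 with miR-143 (25.3% of all genes) and for 15 with miR-150 (21.5% of all genes), 13 of the 15 lower.

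**Figure D2:**
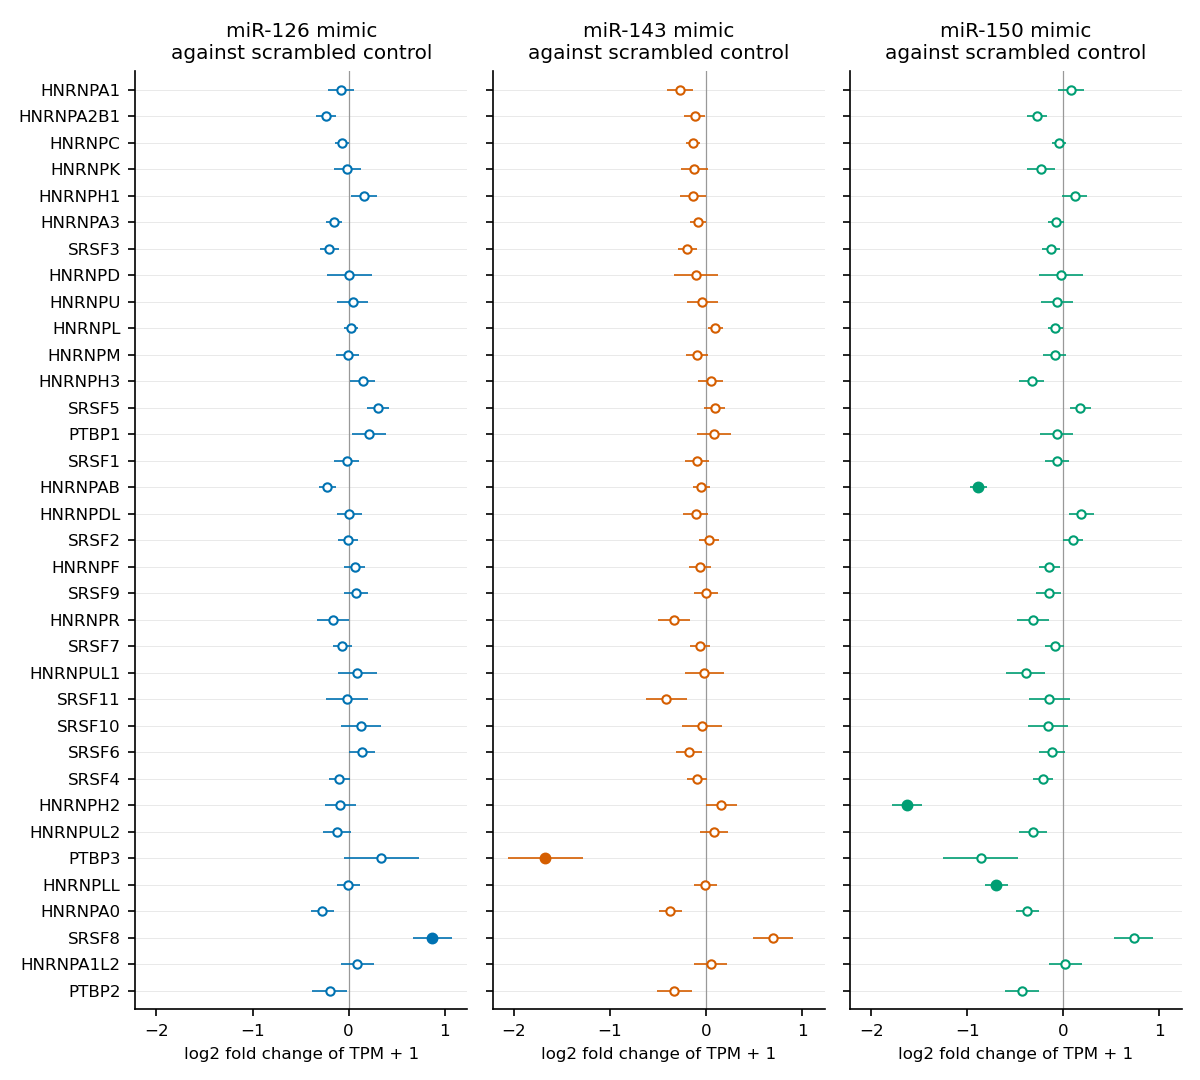
Log2 fold change of TPM + 1 against the scrambled control (horizontal axis) with its standard error for 35 genes ordered by mean level, 1 panel per mimic; filled points passed the adjusted threshold. The filled points are SRSF8 in the first panel, PTBP3 in the second, and HNRNPH2, HNRNPAB and HNRNPLL in the third.

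PTBP3, formerly ROD1, is the PTB paralogue best known from blood cells and lies at chr9:112217716-112333667 on the minus strand. Its level was 57.4, 68.1 and 67.9 TPM in control libraries and 25.8, 22.7 and 12.4 TPM in miR-143 mimic libraries. All 3 mimic libraries were below every control, and their mean of 20.3 ± 6.996 TPM (SD, n = 3) was 31.5% of the control mean of 64.5 ± 6.10 TPM (SD, n = 3). The gene fell by 1.67 on the log2 scale (SE 0.39, limma adjusted p = 0.041). Without the pair of libraries in which long genes were low, the fold change was -1.37 and the adjusted p 0.00066. The call was close to the threshold: it was lost on leaving out any 1 of the 6 libraries of these groups, with adjusted p-values of 0.065 to 0.159 and fold changes of -1.87 to -1.37, and with no filter on low levels (adjusted p = 0.090).

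In miR-126 mimic libraries PTBP3 stood at 81.3, 84.6 and 79.0 TPM, each above every control, but the fold change of 0.34 (SE 0.39) did not pass, with a limma adjusted p of 0.717. The miR-150 mimic libraries held 46.2, 57.9 and 15.8 TPM. The lowest of these is replicate 4, 1 of the pair that stood apart, and without the pair the log2 fold change for miR-150 went from -0.86 to -0.31 (limma adjusted p = 0.288 and 0.230). The transcript PTBP3-205, which carried 82.2% of the gene's level, had 53.0, 59.4 and 56.3 TPM in controls and 20.02, 21.61 and 12.02 TPM in miR-143 mimic libraries, a log2 difference of -1.64 (SE 0.35, limma adjusted p over all transcripts = 0.098).

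Neither relative of PTBP3 passed. PTBP1, the ubiquitous repressor of neuronal and muscle exons, had 272.6, 300.6 and 323.4 TPM in controls and 366.3, 327.3 and 261.1 TPM in miR-143 mimic libraries, which overlap (log2 fold change 0.08, SE 0.18). In miR-126 mimic libraries it had 373.2, 324.9 and 339.0 TPM, all above the controls, with a log2 fold change of 0.21 that did not pass (limma adjusted p = 0.579). PTBP2 had 12.2, 12.2 and 12.7 TPM in controls and 11.8, 9.18 and 8.30 TPM with the miR-143 mimic. Its log2 fold changes of -0.20, -0.33 and -0.43 for miR-126, miR-143 and miR-150 did not pass.

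HNRNPH2, an X-linked protein that binds runs of G and is closely related to HNRNPH1, had the largest decrease among the 35 genes in miR-150 mimic cells. It stood at 102.7, 101.0 and 103.1 TPM in controls and 33.1, 41.5 and 24.7 TPM in miR-150 mimic libraries, 32.4% of the control mean. The groups did not overlap, and each miR-150 mimic library held less than any of the other 9 libraries. The gene fell by 1.63 on the log2 scale (SE 0.16, limma adjusted p = 0.00035), and the call held on leaving out each of the 6 libraries in turn, with adjusted p-values of at most 0.0041. With the miR-126 mimic it stood at 104.6, 89.1 and 95.6 TPM and with the miR-143 mimic at 124.9, 105.4 and 113.5 TPM, neither of which passed.

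A readthrough gene, RPL36A-HNRNPH2, covers the same locus, at 2.74 to 23.7 TPM, and reads shared with it or with HNRNPH1 had to be divided by the quantification. HNRNPH1, the paralogue, was far more abundant and did not pass in any comparison with the control: it had 675.0, 689.9 and 666.8 TPM in controls and 826.1, 759.0 and 631.5 TPM with the miR-150 mimic (log2 fold change 0.12, SE 0.13). HNRNPH3, a smaller relative, had 343.5, 357.5 and 338.4 TPM in controls and 299.4, 308.3 and 226.1 TPM with the miR-150 mimic, all below the controls. Its fold change of -0.33 (SE 0.13) did not pass, with a limma adjusted p of 0.203. HNRNPF, another G-run binder, had a log2 fold change of -0.15 (SE 0.11).

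HNRNPAB, which binds both DNA and RNA and is known from cytidine-to-uridine editing of apolipoprotein B messenger RNA, stood at 313.3, 313.6 and 314.2 TPM in controls and 161.7, 187.5 and 160.4 TPM in miR-150 mimic libraries. It fell by 0.88 on the log2 scale (SE 0.09, limma adjusted p = 0.00035) to 54.2% of the control mean, and the call held in each of the 6 fits without 1 library. Both main coding transcripts were lower. HNRNPAB-202 went from 207.6, 224.9 and 199.2 TPM to 105.5, 129.8 and 97.1 TPM, and HNRNPAB-201 from 96.7, 83.0 and 110.1 TPM to 50.3, 55.6 and 56.7 TPM. In miR-126 mimic libraries HNRNPAB had 268.4, 275.3 and 262.3 TPM, below every control, by 0.22 on the log2 scale (limma adjusted p = 0.180, and 0.0496 with the replicate block).

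HNRNPLL, an HNRNPL paralogue known for switching CD45 exons in lymphocytes, had 48.6, 45.2 and 45.3 TPM in controls and 28.7, 31.0 and 25.3 TPM in miR-150 mimic libraries. It fell by 0.70 (SE 0.12, limma adjusted p = 0.0094) to 61.1% of the control mean. The groups did not overlap, and the adjusted p was 0.060 without control replicate 2 and 0.052 without control replicate 4, and 0.132 when the 6 libraries of these groups were fitted alone. With the other mimics the gene stood at 40.4 to 50.0 TPM. HNRNPL itself had 393.3, 381.1 and 383.6 TPM in controls and 376.5, 365.1 and 350.8 TPM with the miR-150 mimic, a log2 fold change of -0.08 (SE 0.08) that did not pass.

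Without the pair of libraries that stood apart, the miR-150 log2 fold changes were -1.44 for HNRNPH2, -0.85 for HNRNPAB and -0.62 for HNRNPLL, with limma adjusted p-values of 0.00048, 0.00092 and 0.0054. In replicate 4 of the miR-150 mimic, 19 of the 35 genes had their lowest value of all 12 libraries, where 41.9% of all genes did. In replicate 4 of the miR-143 mimic it was 3 of 35, against 9.5% of all genes.

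SRSF8 was low in the controls, at 18.8, 13.7 and 17.2 TPM, and higher in all 9 mimic libraries. It had 35.57, 21.99 and 37.60 TPM with the miR-126 mimic, 30.8, 24.6 and 26.8 TPM with the miR-143 mimic and 28.0, 24.6 and 31.6 TPM with the miR-150 mimic. No mimic library overlapped the controls, and the 3 comparisons share those controls. The gene rose by 0.87 with miR-126 (SE 0.21, limma adjusted p = 0.034), whereas 0.70 with miR-143 and 0.73 with miR-150 (SE 0.21 each) did not pass, with adjusted p-values of 0.101 and 0.085. The differences between mimics were not called either. The miR-126 call was lost in 5 of the 6 fits without 1 library, the exception being that without miR-126 mimic replicate 3 (adjusted p-values 0.010 to 0.144), and with median centring (adjusted p = 0.118) and quantile normalization (0.093).

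Both SRSF8 transcripts had higher means with miR-126, and the second overlapped the controls. The coding transcript SRSF8-201 had 5.52, 6.59 and 6.25 TPM in controls and 15.9, 10.4 and 14.9 TPM with miR-126, and SRSF8-202, annotated as a nonsense-mediated decay transcript, 13.3, 7.11 and 11.0 TPM against 19.7, 11.6 and 22.7 TPM. The 7 bases GGTTGTG, singled out earlier in these same libraries among genes low in the controls and so not independent of them, occur at 2 places in the SRSF8 3′ UTR. They occur in the 3′ UTRs of 4 of the 35 genes (SRSF8, HNRNPR, PTBP2 and SRSF10) and of 10.3% of all genes, on the transcript's strand. HNRNPR, with 1 match, had log2 fold changes of -0.17, -0.33 and -0.32 for miR-126, miR-143 and miR-150, and SRSF10 of 0.13, -0.04 and -0.16, none of which passed.

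**Figure D3:**
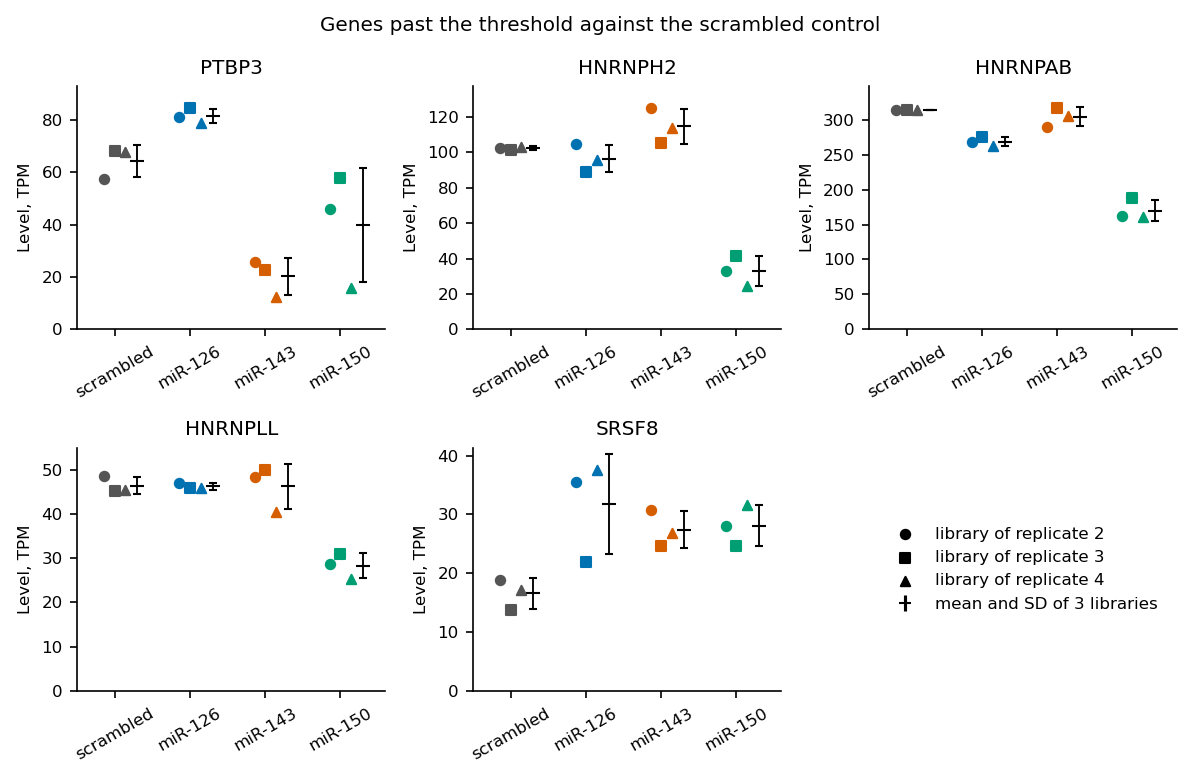
Level in TPM (vertical axis, from 0) of the 5 genes that passed in a comparison with the scrambled control, by group; symbols mark replicates 2, 3 and 4 and bars the mean and SD of 3 libraries. PTBP3 is lowest with miR-143, HNRNPH2, HNRNPAB and HNRNPLL with miR-150, and SRSF8 in the controls.

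None of the other 10 SR genes passed in a comparison with the control. SRSF5, whose messenger RNA is known to respond to growth signals, had 310.2, 310.3 and 289.7 TPM in controls and 393.9, 363.5 and 368.7 TPM with miR-126. The groups were separate, and the log2 fold change of 0.31 (SE 0.11) gave a limma adjusted p of 0.147. Same-numbered libraries of the miR-126 and control groups deviated together, and a fit with replicate number as blocking term gave 0.034. With the block, 4 of the 35 genes passed for miR-126, where 17.0% of all genes tested did. SRSF8 and SRSF5 were higher and SRSF3 and HNRNPAB lower.

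SRSF3 had 578.4, 536.3 and 621.7 TPM in controls and 520.5, 456.3 and 535.0 TPM with miR-126, all below the controls, a log2 fold change of -0.20 (SE 0.10) with a limma adjusted p of 0.290, or 0.044 with the block. SRSF1 stood at 296.9 ± 10.2 TPM in controls, 293.0 ± 22.1 with miR-126, 279.9 ± 36.7 with miR-143 and 285.1 ± 42.0 with miR-150 (SD, n = 3 each). SRSF2 stood at 252.7 ± 20.5, 252.5 ± 24.3, 257.6 ± 19.1 and 269.9 ± 13.3 TPM, and SRSF7 at 242.0 ± 14.5, 231.4 ± 19.1, 231.8 ± 13.1 and 227.6 ± 16.8 TPM, in the same order. For SRSF1, SRSF2 and SRSF7 the log2 fold changes lay between -0.09 and 0.10, with standard errors of 0.10 to 0.13. SRSF11, an SR-like protein found with U2 snRNP, had 168.7, 182.2 and 184.3 TPM in controls and 167.2, 134.2 and 106.1 TPM with miR-143, below every control and lowest in replicate 4. Its log2 fold change of -0.41 (SE 0.21) did not pass, with a limma adjusted p of 0.368.

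None of the abundant hnRNP genes HNRNPA1, HNRNPA2B1, HNRNPC, HNRNPK and HNRNPU passed either. HNRNPA1 had 2134, 1723 and 2048 TPM in controls and 1759, 1462 and 1653 TPM with miR-143, a log2 fold change of -0.27 (SE 0.13, limma adjusted p = 0.339). With miR-126 and miR-150 its fold changes were -0.08 and 0.08. HNRNPA2B1 had 1676, 1406 and 1654 TPM in controls and 1351, 1339 and 1227 TPM with miR-150, all below the controls (log2 fold change -0.27, SE 0.11, limma adjusted p = 0.208). HNRNPC had fold changes of -0.07, -0.14 and -0.04 (SE 0.07) for miR-126, miR-143 and miR-150. HNRNPK, which binds C-rich stretches in RNA and DNA, had -0.01, -0.12 and -0.23 (SE 0.14), and HNRNPU, the scaffold attachment factor, 0.04, -0.04 and -0.07 (SE 0.16). In HNRNPK the low value of the miR-150 group was that of replicate 4, at 590.9 TPM against 870.6 and 876.3 TPM.

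HNRNPA0, a single-exon gene whose protein binds AU-rich elements, was below every control with each of miR-143 and miR-150. It had 38.0, 33.3 and 37.9 TPM in controls, 28.7, 26.8 and 28.1 TPM with miR-143 and 28.4, 28.7 and 26.3 TPM with miR-150. The log2 fold changes of -0.37 and -0.37 (SE 0.12 each) had limma adjusted p-values of 0.120 and 0.112. With miR-126 it had 31.6, 27.0 and 31.2 TPM, also below every control, and a fold change of -0.27 (limma adjusted p = 0.225).

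The direct comparison of the mimics asked whether the changes differed between them. PTBP3 was higher with miR-126 than with miR-143 by 2.01 on the log2 scale (SE 0.39, limma adjusted p = 0.023), the 1 gene of 35 that passed where 2.52% of all genes tested did, and 1.46% of all genes tested as higher with miR-126. That call was lost in 5 of 6 fits without 1 library, the exception being that without miR-143 mimic replicate 2 (adjusted p-values 0.042 to 0.0999), and without the pair that stood apart the value was 1.71 (adjusted p = 0.00028). Between miR-126 and miR-150, 3 genes passed, against 3.91% of all genes tested, and 3.11% for genes higher with miR-126 alone: HNRNPH2 was higher with miR-126 by 1.54 (SE 0.16, limma adjusted p = 0.00060), HNRNPAB by 0.66 (SE 0.09, 0.0030) and HNRNPLL by 0.69 (SE 0.12, 0.011). With the replicate block PTBP3 (1.20, limma adjusted p = 0.031) and HNRNPH3 (0.48, limma adjusted p = 0.014) passed as well, and median centring left HNRNPH2 alone. The fit with the block called 18.9% of all genes tested. The HNRNPLL call was lost without replicate 2 or 4 of the miR-126 mimic (adjusted p = 0.063 and 0.055).

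Between miR-143 and miR-150 the same 3 genes were higher with miR-143, against 2.19% of all genes tested, and 1.59% for higher genes alone. The log2 differences were 1.79 for HNRNPH2 (SE 0.16, limma adjusted p = 0.00042), 0.84 for HNRNPAB (SE 0.09, 0.00088) and 0.69 for HNRNPLL (SE 0.12, 0.014). The last was lost without replicate 2 or 3 of the miR-143 mimic (adjusted p = 0.066 and 0.056). Same-numbered libraries deviated together here too, and with the block 7 genes passed, where 9.75% of all genes tested did. The highest of those correlations, 0.74, was that of replicate 4, the pair of libraries in which long genes were low. The part of that shared trait in the correlation was not tested. HNRNPH3 and HNRNPUL2 were also higher and HNRNPA1 and HNRNPDL lower with miR-143. For PTBP3 the difference between miR-143 and miR-150 was -0.82 (limma adjusted p = 0.379), with the miR-150 libraries spread over 15.8 to 57.9 TPM. Without the pair that stood apart it was -1.06 (adjusted p = 0.0076).

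Members' transcripts were examined one by one, with the caution that transcripts of a gene share reads. The 40 symbols had 488 transcripts in the table, and 443 of them, 90.8%, were found in GENCODE release 29. On average, protein-coding transcripts held 78.0% of the members' TPM, nonsense-mediated decay transcripts 9.46%, retained-intron transcripts 5.58%, other processed transcripts 3.20% and transcripts not found 3.72%. The test covered 58341 transcripts, 320 of them from these genes. Of the 320, 3 passed for miR-126, 1 for miR-143 and 2 for miR-150, where 0.571%, 0.310% and 0.379% of all transcripts did. With the replicate block 5 passed for miR-126, where 1.64% of all transcripts did. The further ones were SRSF5-205 and SRSF8-201, both higher (limma adjusted p = 0.037 and 0.034).

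HNRNPA1-204, a coding transcript, had 471.9, 371.9 and 425.0 TPM in controls and 277.0, 227.7 and 252.4 TPM with miR-126. It fell by 0.74 (SE 0.13, limma adjusted p = 0.035), while the gene's sum had a fold change of -0.08. HNRNPH1-201 had 50.95, 33.6 and 30.1 TPM in controls and 0.0604, 8.947e-08 and 0.00124 TPM with miR-126, and fell by 5.23 (SE 0.99, limma adjusted p = 0.046). It also varied within groups, with 9.89, 34.1 and 6.35 TPM for miR-143 and 0.299, 22.2 and 0.0404 TPM for miR-150, and HNRNPH1 has 58 transcripts and 2 gene identifiers under its symbol, among which reads are divided. Both calls were lost on leaving out any 1 of the 6 libraries, with adjusted p-values of up to 0.155 and 0.180.

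SRSF9-203, a retained-intron transcript of the SR gene SRSF9, was listed at 0 in all 3 controls. It was listed at 8.26, 1.77 and 4.69 TPM with miR-126, at 10.4, 10.8 and 15.2 TPM with miR-143, and at 3.61, 2.04 and 6.40 TPM with miR-150. Its limma adjusted p was 0.042 for miR-126, 0.0063 for miR-143 and 0.064 for miR-150, and the miR-143 call held in all 6 fits without 1 library, while the miR-126 call held only without miR-126 mimic replicate 3. The transcript is a single exon at chr12:120461693-120463396 on the minus strand and lies wholly inside the exon chr12:120459907-120463749 of GATC-203 on the plus strand. Whether strand was used in the quantification is unknown here, so reads of the neighbour cannot be told apart. GATC itself had 17.7 to 23.9 TPM in controls and 20.3 to 31.2 TPM in mimic libraries. Its transcript GATC-203 had 16.5, 18.4 and 17.7 TPM in controls and 19.1 to 30.2 TPM in mimic libraries, all above the controls. SRSF9 as a gene had fold changes of 0.08, 0.003 and -0.15 for miR-126, miR-143 and miR-150.

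For miR-150, HNRNPH2-201, the only transcript of its gene in the table, and HNRNPAB-202 passed, with log2 fold changes of -1.63 (limma adjusted p = 0.0025) and -0.93 (limma adjusted p = 0.011). The HNRNPAB-202 call was lost in 4 of 6 fits without 1 library, those without any 1 control or without miR-150 mimic replicate 2, with adjusted p-values up to 0.060.

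The balance between coding and other transcripts was tested as the log2 ratio of a gene's TPM outside coding transcripts to that in coding ones. By limma, 0 of the 31 genes that had both kinds passed for any mimic, where 0, 1 and 2 of 8266 genes did (0%, 0.0121% and 0.0242%). At an unadjusted p under 0.05 there were 3, 1 and 2 of the 31 for miR-126, miR-143 and miR-150. The share of all 8266 genes under that level was not computed, so these counts show no excess among the 31. For miR-126 the ratio was above the control for 23 of 31 genes, with a median difference of 0.27 against 0.06 over all genes, and 11 genes had separate groups (17.1% of all genes), 10 of them with the higher ratio in the mimic. For miR-143 it was above the control for 14 of 31 (median -0.051 against -0.053 over all genes), with 5 genes separate (13.1% of all genes), and for miR-150 for 17 of 31 (median 0.071 against 0.027), with 4 separate (12.4% of all genes).

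SRSF2, which is known to limit itself by making decay-prone transcripts, illustrates the spread. Transcripts outside the coding class held 26.4%, 30.1% and 25.4% of its TPM in controls and 37.4%, 45.4% and 48.2% with miR-126. With miR-143 they held 34.6%, 32.7% and 37.0%, and with miR-150 35.1%, 30.4% and 62.7%. All mimic libraries were above the controls, the highest being replicate 4 of miR-150, but the log2 ratio differences of 1.03, 0.50 and 0.97 had adjusted p-values of at least 0.574. The decay transcript SRSF2-208 had 1.6e-05, 12.6 and 4.94 TPM in controls and 36.2, 37.6 and 67.6 TPM with miR-126, while the gene's sum had a fold change of -0.002. SRSF2-208 had 23.05, 17.1 and 44.0 TPM with miR-143 and 25.5, 11.2 and 106.2 TPM with miR-150, which overlaps the controls. The transcript did not pass in any comparison with the control. The share in SRSF4 was 2.06%, 4.92% and 4.46% in controls and 7.53%, 9.45% and 6.30% with miR-126, and in SRSF7 14.4%, 15.5% and 16.6% against 17.5%, 22.9% and 17.8%. In SRSF9 it was 6.24%, 6.04% and 5.41% in controls and 11.3%, 8.68% and 8.60% with miR-143.

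**Figure D4:**
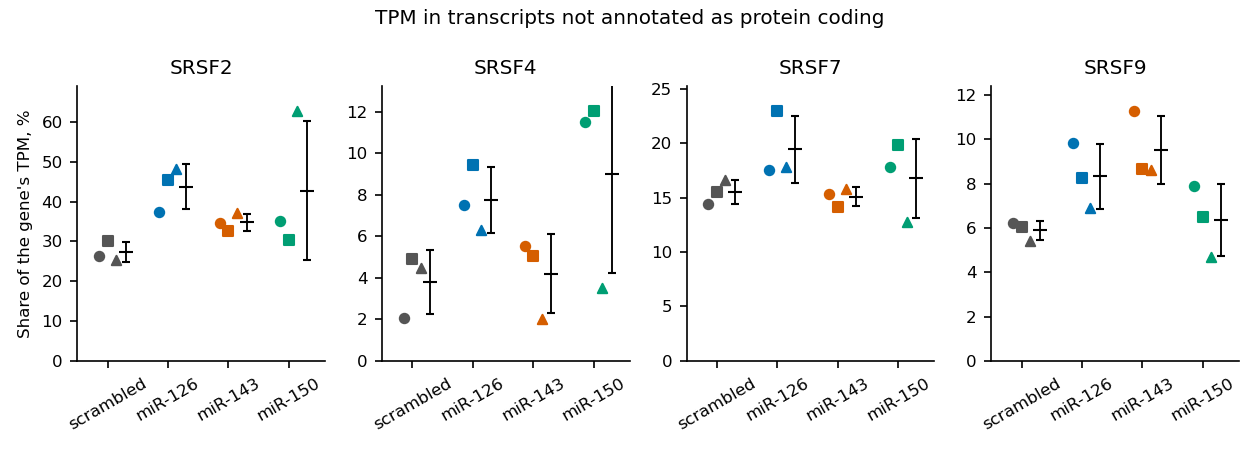
Share of a gene's TPM in transcripts not annotated as protein coding (vertical axis, in percent from 0) for SRSF2, SRSF4, SRSF7 and SRSF9 by group; symbols mark replicates 2, 3 and 4 and bars the mean and SD of 3 libraries. The 3 miR-126 libraries lie above the 3 controls in each panel, and no difference passed the adjusted test.

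Replicate number went with the level of several genes. In 8 of the 35, HNRNPA1, HNRNPD, HNRNPDL, SRSF2, SRSF3, SRSF7, SRSF8 and SRSF9, replicate 3 was the lowest library in all 4 groups, as in 9.43% of all genes, and in 0 of the 35 was it the highest in all 4, as in 18.9% of all genes. HNRNPD, or AUF1, which binds AU-rich elements and promotes messenger RNA decay, is an example. It had 564.8, 365.5 and 514.2 TPM in controls, 559.9, 353.7 and 546.2 TPM with miR-126, 530.8, 333.6 and 486.7 TPM with miR-143 and 508.3, 399.2 and 496.2 TPM with miR-150, so that replicate 3 lay below the other libraries of every group. The log2 fold changes of HNRNPD against the control were 0.01, -0.10 and -0.03. Its paralogue HNRNPDL had 287.3, 231.2 and 259.1 TPM in controls. Interferon-stimulated genes moved with the same libraries: their 24 listed genes summed to 403.8, 2587 and 359.8 TPM in controls, and replicate 3 was also the highest in each mimic group. Cell type markers moved with them in both directions: TAGLN (10.2, 53.0 and 5.77 TPM in controls) and ACTA2 (6.46, 25.2 and 2.38 TPM) were highest in replicate 3 of all 4 groups, and COL1A1, COL1A2 (64.9, 8.65 and 80.1 TPM), EMCN (85.4, 34.4 and 104.2 TPM) and ESAM were lowest there in all 4. The part of the interferon-stimulated genes and of these markers in the levels of the 8 splicing factor genes was not tested.

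**Figure D5:**
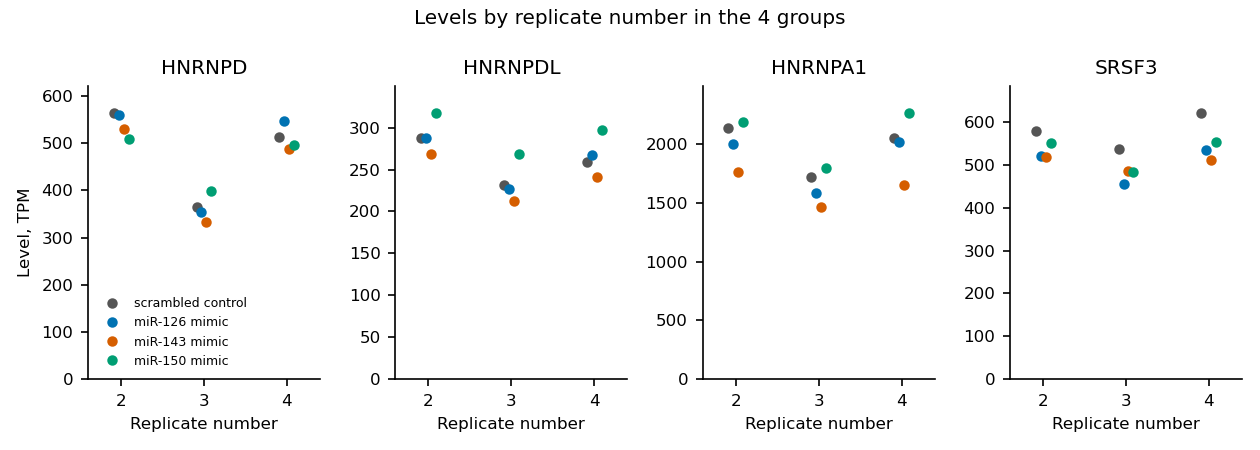
Level in TPM (vertical axis, from 0) of HNRNPD, HNRNPDL, HNRNPA1 and SRSF3 by replicate number (horizontal axis), coloured by group. In every group the library of replicate 3 is the lowest of the 3.

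Other parts of the splicing machinery are given by lists, with calls in limma over all genes. Among 16 tested hnRNP-like proteins under other symbols, EWSR1, an RNA-binding protein, passed in all 3 comparisons, rising by 0.78, 0.70 and 0.45 for miR-126, miR-143 and miR-150. It had 140.2, 130.4 and 145.4 TPM in controls and 255.0, 223.1 and 239.2 TPM with miR-126. Among 25 SR-related proteins and SR protein kinases, SRRM2, a nuclear speckle scaffold, rose by 1.12 with miR-126 and 0.95 with miR-150, RNPS1, an exon junction protein, rose by 0.57 with miR-126, and SCAF1 fell by 0.69 with miR-150. The call of RNPS1 was lost in 6, and those of SCAF1 and of EWSR1 with miR-150 in 5, of the 6 fits without 1 library, and the last 2 also without the pair that stood apart (adjusted p = 0.057 and 0.056).

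Of 48 core spliceosome and snRNP proteins, SNU13, which binds U4 snRNA, rose in all 3 comparisons. It had 61.0, 66.0 and 60.6 TPM in controls, 204.1, 179.7 and 200.8 TPM with miR-126, 186.4, 159.2 and 210.4 TPM with miR-143 and 194.5, 151.0 and 212.7 TPM with miR-150, log2 fold changes of 1.62, 1.54 and 1.54. SNRPD1, an Sm ring protein, rose by 0.88 with miR-126 and 0.97 with miR-143, and SF3B1, the branch-site factor, by 0.47 with miR-143. The miR-126 call of SNRPD1 was lost without control replicate 4 (adjusted p = 0.052), and that of SF3B1 without control replicate 2 or 4 or miR-143 mimic replicate 3 (0.062, 0.086 and 0.059). With the replicate block, for miR-126, 7 of the 48 were higher and 1 lower, against 11.8% and 5.11% of all genes tested. The 3′ UTRs of SNU13, SNRPD1, SRRM2, RNPS1 and EWSR1 each hold 1 copy of GGTTGTG. Of 15 nonsense-mediated decay factors 0 passed for miR-126 and miR-150, and RBM8A, the exon junction core protein Y14, fell by 0.66 with miR-143, from 278.6, 245.2 and 263.6 TPM to 162.1, 152.5 and 183.8 TPM, a call lost without control replicate 2 or 4 (adjusted p = 0.064 and 0.055). Of 21 other splicing regulators, 0 passed in any comparison with the control. Of 11 endothelial markers, ENG fell by 0.56 with miR-150, and of the 7, 2 and 1 tested markers of fibroblasts and pericytes, epithelium and leukocytes 0 passed. Of 24 interferon-stimulated genes IRF7 alone passed, with miR-126 (2.16), although the list's median log2 fold changes were 2.34, 1.43 and 0.23 for miR-126, miR-143 and miR-150. With the replicate block 23 of the 24 were higher for miR-126, and of the decay factors 2 were higher and 1 lower, of the other splicing regulators 1 and 1, of the endothelial markers 1 and 1, and of the fibroblast and pericyte markers 2 and 1.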

How the data were processed

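RNA from 12 libraries (4 groups of 3) was quantified by the authors per transcript and deposited as TPM; the submitters' processing notes name FastQC, kallisto, sleuth and hg38 (GRCh38), with versions not given in the sources used. TPM was summed per symbol, leaving 171 of 187626 transcripts without a symbol, and symbols reaching 1 TPM in 3 or more libraries were tested. Tests were two-sided limma 3.58.1 (R 4.3.3) on log2(TPM + 1) over all libraries, with trend and Benjamini-Hochberg adjustment. The fit was also run on simulated data with independent noise, without replicate effects or libraries that stand apart. That run therefore cannot vouch for the calls in these libraries. Depth is unknown. The genes and lists were chosen with earlier results of these data known. Named were genes past the threshold, 12 fixed genes, the 3 highest and 3 lowest, called transcripts with a mean of at least 5 TPM and at most 4 called genes of each other list; further members were named after their values were seen. Same-numbered libraries correlated in their deviations over 0.1 in every pair for miR-126 against the control (0.29, 0.63 and 0.40) and between mimics (0.28 to 0.74), but not for miR-143 (0.04, 0.65 and 0.17) or miR-150 (0.07, 0.60 and 0.07) against the control. Alternatives were another pseudocount, filter, scaling, the replicate block, fewer libraries and leaving out each library. Seed matches used GENCODE 29. Results on 1 gene of the other lists are not reported here.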

Additional observations from a re-analysis of the deposited data

How the results depend on the processing

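No value reversed among called results. Of 504 recomputed values of the 36 called results (a gene or transcript in 1 comparison), 376 kept their call. Of 1204 recomputed values of results that the main fit did not call, 42 gained a call and 90 changed sign. The numbers of called genes, against the control, were 1, 1 and 3 for miR-126, miR-143 and miR-150. For miR-126 it was 0 with no filter on low levels, 0 with median centring, 0 with quantile normalization, 2 with only the 6 libraries and 4 with the replicate block. Of all genes tested, 2.22% passed with no filter, 6.55% with median centring, 7.48% with quantile normalization and 12.2% with only the 6 libraries. For miR-143 it was 0 with no filter (1.51% of all genes tested) and 4 with the replicate block, and for miR-150 6 with the block. The fits with the block called 17.0%, 12.9% and 12.3% of all genes tested for miR-126, miR-143 and miR-150. In those last 2 comparisons, miR-143 first, same-numbered libraries deviated together in part. Their deviations correlated at 0.65 and 0.6 in replicate 3, but at 0.04 and 0.07 in replicate 2 and at 0.17 and 0.07 in replicate 4. The pairing that the block assumes was thus clear in replicate 3 and weak in the other libraries. Leaving out 1 library gave 0 to 1 for miR-126 and 0 in each fit for miR-143. Those fits called 1.56% to 3.43% and 1.01% to 2.47% of all genes tested. Between mimics, miR-126 against miR-143 gave 1, 0 with no filter (0.966% of all genes tested) and 0 to 1 without 1 library (0.560% to 1.33%). For miR-126 against miR-150 it was 3, with 1 after median centring, 5 with the block, 5 without the pair that stood apart, 0 with only the 6 libraries and 2 to 5 without 1 library. In those alternative fits, in the same order, 4.02%, 18.9%, 5.06%, 0.138% and 0.851% to 5.21% of all genes tested passed. For miR-143 against miR-150 it was 3, with 7 under the block (9.75% of all genes tested) and 0 with only the 6 libraries (0.0291%). Called transcripts for miR-126 numbered 3, with 0 under no filter, 5 with a filter at 5 TPM, 5 with the block, 6 without the pair that stood apart, 1 with only the 6 libraries and 0 to 1 without 1 library. In those alternative fits, in the same order, 0.241%, 2.01%, 1.64%, 1.46%, 0.680% and 0.122% to 0.238% of all transcripts tested passed. For miR-143 there was 1, with 2 under each of median centring, quantile normalization, the block and leaving out the pair, and 0 with only the 6 libraries. In those alternative fits, in the same order, 0.363%, 0.415%, 0.963%, 0.411% and 0% of all transcripts tested passed. For miR-150 there were 2, with 5 at the 5 TPM filter, 1 after median centring, 4 after quantile normalization, 5 with the block, 0 with only the 6 libraries and 1 to 5 without 1 library. At the 5 TPM filter, 132 of all 25032 transcripts tested were called higher and 250 lower. Shares of all transcripts in the other miR-150 fits are not given here. The transcripts called with the block included 2 of HNRNPH1 with equal values in every library, which are not separate calls. The cause of these differences was not tested. The number of genes with a changed transcript balance stayed at 0 under every alternative run. For the paired comparisons the block changed no call beyond those given. Depth is unknown, and transcripts of near-identical genes are uncertain.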
